A study of Mus musculus with 4 samples.

Results

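Th1_03 is the name that the study's authors gave to 1 of the 12 T cell types in their annotation of tumor-draining lymph node cells. Its members were taken as every cell with that name in the deposited T cell table, 404 cells of 4094 annotated T cells and of 5825 annotated cells in all. Of these, 223 came from mice on control chow and 181 from mice on RGX-104 chow. The name points to T helper 1 cells, but the transcripts measured in these cells were those of naive CD4 T cells and not those of T helper 1 cells, so they are called Th1_03 cells below and no other cell type name is given to them.

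The animals were wildtype mice carrying an injected tumor, fed control chow or, from day 3, chow carrying RGX-104, a compound that activates the liver X receptors (LXR), and the nodes were collected on day 8. T cells and antigen-presenting cells were sorted from the nodes and run on a 10x platform that reads the 5' end of transcripts and, in a separate library, the T cell receptor. There was 1 RNA library and 1 receptor library per chow. The tumor line, the age of the mice and the number of mice pooled are not given in the sources used here, the drug reached the whole animal rather than these cells alone, and both chows share the tumor and the sort.

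T helper 1 cells are CD4 T cells that turn on the transcription factor T-bet, encoded by Tbx21, after priming, make interferon gamma (Ifng) and carry the chemokine receptor CXCR3, which guides them to inflamed tissue. Naive CD4 T cells instead carry Ccr7, a receptor for entry into lymph nodes, and the transcription factors Tcf7 and Lef1. LXR are sterol-sensing nuclear receptors. They switch on genes that export cholesterol and make fatty acids, and cholesterol loss from a cell releases SREBP2, a factor that drives the genes of cholesterol synthesis and uptake.

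All values below are unique molecular identifier (UMI) counts summed over the Th1_03 cells of a library, 1094962 UMIs under control chow and 903341 under RGX-104 chow, or those sums divided by the library's Th1_03 total (CPM). The median cell had 4768 and 4781 UMIs, and 1663 and 1652 genes detected. With 1 library per chow there is no replicate, so no difference was tested and none can be set against the spread between mice. The 95% intervals given are exact and cover counting error only. A gene was counted as higher or lower at a ratio of at least 1.5-fold, and as measured with 50 UMIs or more over the libraries compared. A gene with few UMIs in 1 group can thus be measured through its counts in another. The libraries shared 95 barcodes, of which 4 and 1 belonged to Th1_03 cells of the control and the RGX-104 library.

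The cells were CD4 T cells. Cd4, the co-receptor for class II molecules, had 244 UMIs under control chow and 229 under RGX-104 chow (223 and 254 CPM). Cd3e, a chain of the receptor complex, stood at 786 and 695 CPM, and Trac, the constant part of the receptor's alpha chain, at 358 and 334 CPM. Cd8a, the co-receptor of killer T cells, had 4 and 3 UMIs. After every cell was thinned to 2000 UMIs, which left out 2 control cells, Cd4 was seen in 42.5% and 39.2% of Th1_03 cells (62.8% and 68.0% unthinned). In the CD8_01 cells, which should lack it, that share was 0.649% and 0.490% (0.862% and 1.47% unthinned), so the Cd4 signal lay far above the level in cells without it. Foxp3, the factor of regulatory T cells, had 8 and 2 UMIs, of which 1 cell held 62.5% in the control library, and Bcl6, the factor of follicular helper cells, had 18 and 7.

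The genes that define T helper 1 cells were at or near 0. Tbx21 had no UMI in any of the 404 cells, which allows a share of up to 1.36% and 1.66% of the thinned cells with a UMI, and Ifng had 1 UMI in each library. Cxcr3 had 0 UMIs under control chow and 4 under RGX-104 chow, these in 2 cells. The 25 genes of a T helper 1 list summed to 506 CPM (465 to 550) and 614 CPM (564 to 668), the lowest of the 12 T cell types in both libraries. The highest were CD8_03 at 8123 CPM under control chow and the cells named Cytotoxic T at 13428 CPM under RGX-104 chow. Of the listed genes, 11 were at 0 in the control library, among them Il12rb1, a chain of the interleukin 12 receptor, and Gzmb, a killing enzyme, and 6 were at 0 in the RGX-104 library.

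Genes of naive T cells were high instead. All 20 of that list were measured and summed to 8764 CPM (8589 to 8941) and 8052 CPM (7868 to 8240), the third highest of the 12 types under control chow and the highest under RGX-104 chow, while regulatory T cells were lowest at 2572 and 2156 CPM. Ccr7 stood at 1130 and 883 CPM and was seen in 91.5% and 89.0% of cells. Tcf7 stood at 605 and 508 CPM, Lef1 at 579 and 542 CPM, and Il7r, the receptor for the survival factor interleukin 7, at 628 and 566 CPM. Cd44, which marks T cells that have met antigen, had 27 UMIs in each library. Th1_01 and Th1_02 lay beside Th1_03 on both lists, and among these 3 the order on the T helper 1 list was within the counting intervals.

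**Figure D1:**
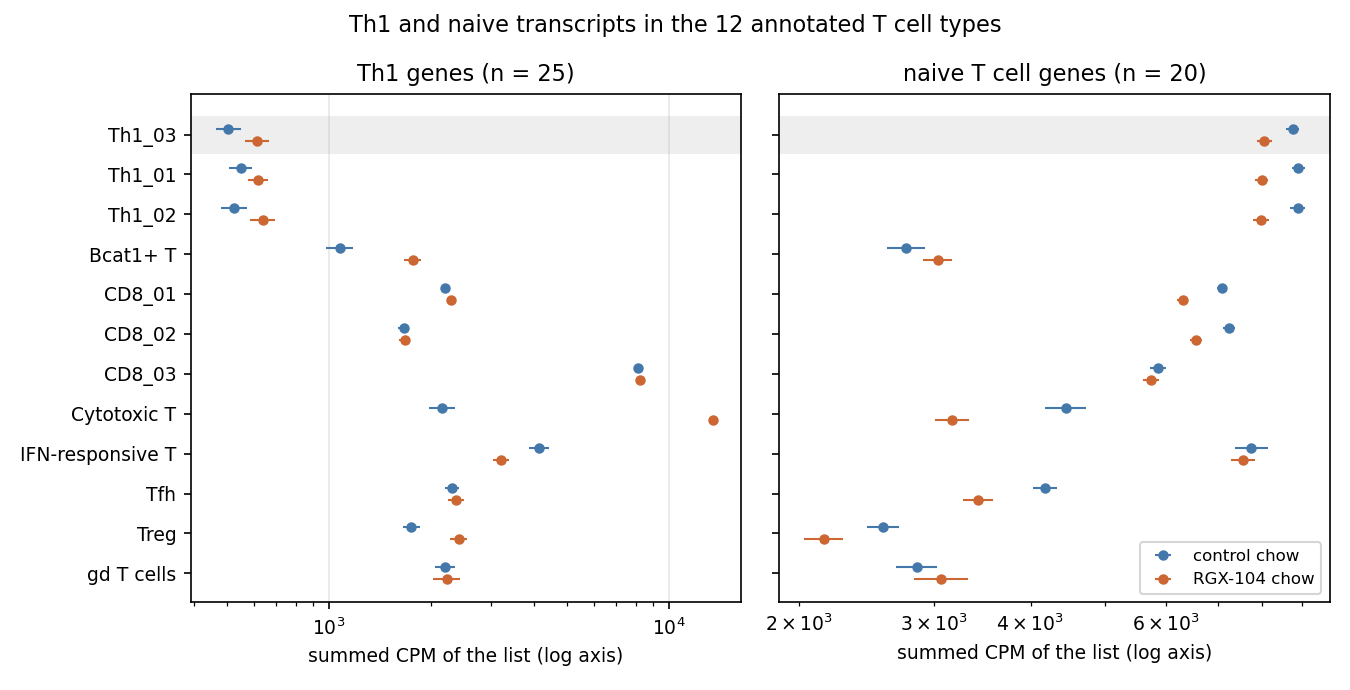
Summed CPM of 25 T helper 1 genes (left) and 20 naive T cell genes (right) in the 12 annotated T cell types, on log axes, with control chow in blue, RGX-104 chow in orange and bars for the 95% counting interval. Th1_03, shaded, is lowest on the left at 506 and 614 CPM and sits with Th1_01 and Th1_02 at the upper end on the right, at 8764 and 8052 CPM.

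Transcripts of other cells were present at low levels. A list of 18 myeloid and dendritic cell genes summed to 423 CPM (385 to 463) under control chow and 641 CPM (590 to 695) under RGX-104 chow, with Csf1r, Ccl17 and Clec9a at 0 in both. The B cell list of 12 genes summed to 262 and 241 CPM, most of it Ighm, the heavy chain of IgM, at 224 and 193 CPM. The CD8 list of 5 genes summed to 75.8 and 94.1 CPM against 1780 and 1562 CPM in CD8_01. In the authors' doublet column, no Th1_03 cell exceeded a score of 0.356 under control chow and 0.425 under RGX-104 chow, and all are called singlets.

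The share of T cells named Th1_03 was 10.6% (9.34 to 12.02) under control chow and 9.07% (7.85 to 10.4) under RGX-104 chow. The ratio of the shares was 0.854 with an interval of 0.709 to 1.03 that holds 1. Among Th1_01, Th1_02 and Th1_03 cells alone it was 30.2% and 26.4%, a ratio of 0.874 (0.741 to 1.03). Of all barcodes in the library it was 3.04% and 2.09%, a ratio of 0.688 (0.567 to 0.835), and this last denominator also holds the many barcodes that the authors left unannotated.

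The contrast with Th1_01 and Th1_02 asks what sets Th1_03 apart from cells that carry nearly the same transcripts. The clusters were made from these genes, so the following values describe the authors' split and test nothing. Of 7014 measured genes, 49 were at least 1.5-fold higher in Th1_03 than in Th1_01 in both libraries (0.699%) and 78 were lower (1.11%). Against Th1_02, 53 of 6477 were higher (0.818%) and 56 lower (0.865%). None of the 20 naive genes and none of the measured T helper 1 genes was past 1.5-fold in both libraries in either contrast. The median log2 ratio of the naive list was -0.02 and 0.01 against Th1_01, and -0.07 and 0.02 against Th1_02, beside -0.02 and -0.02, and -0.02 and 0.02, over all measured genes.

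Of the 14 measured genes of a proliferation list, 3 were at least 1.5-fold higher in Th1_03 than in Th1_01 in both libraries. These were Mcm3, Mcm5 and Mcm6, all subunits of the replication helicase. None of the 14 was lower in both, and the list's median log2 ratios were 0.55 and 0.40. The interval held 1 for Mcm5 under control chow (0.879 to 4.52) and for Mcm6 under RGX-104 chow (0.908 to 3.04). Mcm4 and Mcm7, further subunits of this helicase, had ratios of 1.36 and 0.706, and of 0.974 and 0.841. Over all measured genes, 0.699% were higher and 1.11% lower. The 8 genes with the highest ratios by the naming rule are given next, whether or not they passed 1.5-fold in both libraries. Anp32e, a chaperone that removes the histone variant H2A.Z, stood at 123 CPM in Th1_03 and 74.6 CPM in Th1_01 under control chow, a ratio of 1.65 (1.26 to 2.18), and at 149 and 63.5 CPM under RGX-104 chow, a ratio of 2.35 (1.78 to 3.13). Smc4, a condensin subunit that compacts chromosomes, stood at 335 against 199 CPM and at 238 against 169 CPM, ratios of 1.69 (1.43 to 1.99) and 1.41 (1.16 to 1.70), the latter short of 1.5-fold. Ctcf, which organises chromatin loops, had ratios of 1.82 and 1.51. Hmgb2, a DNA-bending protein of dividing cells, had ratios of 1.98 and 1.46, again short of 1.5-fold under RGX-104 chow, and 1 cell held 23.0% and 20.3% of its Th1_03 UMIs. Without the top cell of each type and library the Hmgb2 ratios were 1.59 and 2.48. Tmpo, a protein of the nuclear envelope, and Tubb4b, a tubulin, lay between 1.55 and 1.82 in both libraries, and Mcm3, a subunit of the replication helicase, at 2.50 and 2.16 from 40 and 31 UMIs. Mif, a cytokine that most cells store, stood at 1.34 and 1.26 and did not pass 1.5-fold in either library.

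Lower than in Th1_01 were H2-Ab1, a class II chain, at 13.7 against 29.2 CPM and 18.8 against 46.1 CPM, and Prr7, an adaptor protein of T cell membranes, with ratios of 0.582 and 0.528. H2-Ab1 is made by antigen-presenting cells, and whether these UMIs were the cells' own was not tested. Malat1, a nuclear noncoding RNA, had ratios of 0.900 (0.869 to 0.932) and 0.837 (0.805 to 0.870), and Gimap6, a GTPase of quiescent lymphocytes, 0.825 and 0.840, none of them past 1.5-fold. Mef2a, Nup98 and Atn1 had ratios between 0.590 and 0.726.

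Against Th1_02, 2 of the 14 measured proliferation genes were at least 1.5-fold higher in Th1_03 in both libraries (Mcm3 and Pclaf) and 1 was lower (Mcm4), with median log2 ratios of 0.03 and 0.46. Over all measured genes, 0.818% were higher and 0.865% lower. Anp32e, high against Th1_01, had ratios of 1.01 and 1.02 here, and Hmgb2 0.914 and 1.38. Smc4 stood at 335 against 508 CPM under control chow and at 238 against 393 CPM under RGX-104 chow, ratios of 0.659 (0.574 to 0.757) and 0.606 (0.507 to 0.722). Th1_03 was thus between the other types for this gene in both libraries, above Th1_01 and below Th1_02. Casp8ap2, needed for histone supply in S phase, had ratios of 0.440 and 0.467, Sox4, a transcription factor, 0.271 (0.155 to 0.454) and 0.596 (0.396 to 0.889), and Bmp2k, a kinase, 0.579 and 0.361. Lars2, a mitochondrial tRNA ligase, had ratios of 0.764 and 0.802, Gimap6 0.801 and 0.717, Malat1 0.870 and 0.816, and H2-Ab1 0.465 and 0.472. On the high side by the naming rule was Igfbp4, a binding protein of insulin-like growth factors from the naive list, at 732 against 529 CPM and 669 against 496 CPM, ratios of 1.38 (1.23 to 1.55) and 1.35 (1.19 to 1.53). Izumo1r, the folate receptor of T cells, had ratios of 1.48 and 1.78, Ddit4, a brake on mTORC1, 2.45 and 2.002, and Btbd6 3.18 and 2.47. Mif, Ppia and the chaperone gene Hsp90ab1 had ratios between 1.12 and 1.42. Pclaf, a partner of the replication clamp, headed the list at 2.52 and 3.89, but 1 cell held 93.8% of its 32 UMIs under control chow, and the control ratio was 0.347 without the top cell of each type.

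**Figure D2:**
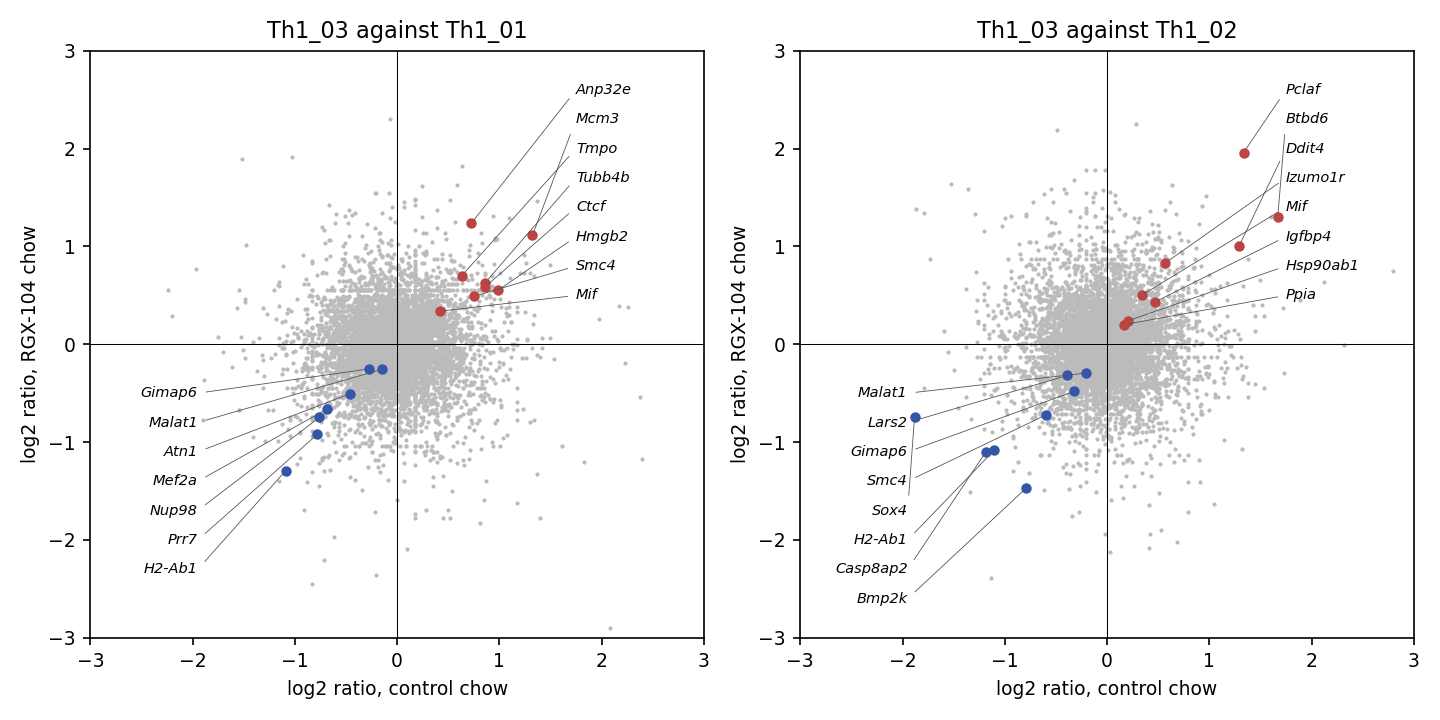
The log2 ratio of each measured gene in Th1_03 against Th1_01 (left) and against Th1_02 (right), control library on the horizontal axis and RGX-104 library on the vertical axis, with the named genes in red where higher in Th1_03 and in blue where lower, and genes beyond 3 on either axis not drawn. Smc4 lies at the upper right on the left panel, at ratios of 1.69 and 1.41, and at the lower left on the right panel, at 0.659 and 0.606, and most genes lie near 0 in both.

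The deposited cell cycle scores, which compare genes of a phase with control genes in each cell, ordered the 3 types for G2M but not for S. The median G2M score of Th1_03 cells was -0.0417 under control chow and -0.0413 under RGX-104 chow, above Th1_01 (-0.0840 and -0.0802) and below Th1_02 (-0.006685 and -0.00193). The middle 50% of Th1_03 cells ran from -0.0542 to -0.0255 and from -0.0507 to -0.0246. This range lay above the middle 50% of Th1_01 cells in both libraries and overlapped the lower edge of the middle 50% of Th1_02 cells. In the S score, Th1_03 (-0.0231 and -0.0309) lay above Th1_01 (-0.0322 and -0.0245) under control chow and below it under RGX-104 chow, and below Th1_02 (0.0180 and 0.0195) in both. The deposited phase calls put 68.2% and 77.3% of Th1_03 cells in G1, 27.8% (22.03 to 34.2) and 17.7% (12.4 to 24.0) in S, and 4.04% and 4.97% in G2M. For G2M this compares with 0.00% and 0.338% of Th1_01 and 29.5% and 33.2% of Th1_02. For S it compares with 21.9% and 28.7% of Th1_01, below Th1_03 in the control library and above it in the RGX-104 library, and with 57.7% and 56.2% of Th1_02. Mki67, the marker of cycling cells, had only 11 and 10 UMIs in Th1_03.

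The genes behind such scores were counted as well. The lists that ship with Seurat were examined after the scores had been seen to differ, and these genes are part of what the clusters were made from. Against Th1_01, 14 of 16 measured G2M genes had a ratio above 1 in both libraries and 1 had a ratio below 1 in both, beside 23.0% and 28.8% of all measured genes, with median log2 ratios of 0.86 and 0.52. Against Th1_02, 1 of 20 was above 1 in both and 13 were below, beside 26.2% and 26.6%, with medians of -0.47 and -0.32. Of the S genes, 8 of 19 were above 1 and 2 below against Th1_01, and 2 of 22 above and 11 below against Th1_02. Among the G2M genes, Top2a, Cks2 and Cbx5 had control ratios of 8.44, 3.94 and 4.50 against Th1_01 but 0.809, 1.19 and 1.31 under RGX-104 chow, so their level differed between libraries as well as types.

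**Figure D3:**
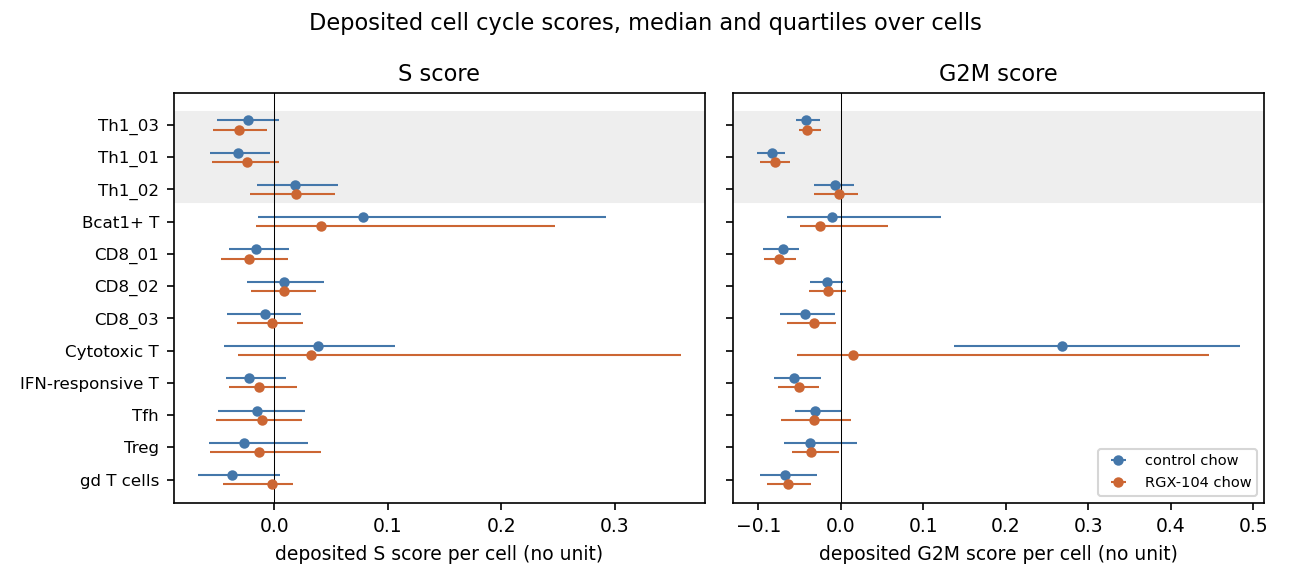
Deposited S scores (left) and G2M scores (right) per cell, as the median (point) and the middle 50% of cells (bar), for the 12 T cell types under control chow (blue) and RGX-104 chow (orange), with the 3 types named Th1 shaded. In the G2M score Th1_03, at -0.0417 and -0.0413, lies between Th1_01 and Th1_02 under both chows.

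The receptor sequences were not used to make the clusters, so they are a readout apart from the transcript counts. A clonotype was taken as the same V gene, J gene and CDR3 nucleotides in both chains, where CDR3 is the loop, different in each newly made T cell, that touches the peptide. Both chains were read in 166 Th1_03 cells under control chow and 116 under RGX-104 chow, and these held 166 and 116 different clonotypes. No clonotype of both chains occurred in more than 1 Th1_03 cell. Repeats depend on how many cells of a clone were sampled, so no upper limit on expanded clones follows from this. None was found in both libraries.

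Counting all T cell types, 2 of the 166 cells (1.20%, 0.146 to 4.28) and 2 of the 116 cells (1.72%, 0.209 to 6.09) shared a clonotype with another T cell. By the same count, repeated clonotypes held 0.00% and 1.81% of Th1_01 cells, and 2.76% and 2.70% of Th1_02 cells. They held 8.51% (3.75 to 16.1) and 3.39% (0.413 to 11.7) of Tfh cells, and 11.5% (2.45 to 30.2) of Cytotoxic T cells under RGX-104 chow. The share was 0.00% in the 12 paired Cytotoxic T cells under control chow, and 0.00% and 6.67% in CD8_03 cells. It was 0.00% under both chows in IFN-responsive T and Bcat1+ T cells. A low share was thus not particular to Th1_03. With the beta chain alone, 5 of 205 and 5 of 158 Th1_03 cells were in repeated clonotypes, 2.44% and 3.16%. Under RGX-104 chow, 1 of these beta clonotypes occurred in 2 Th1_03 cells. These are shares of the cells sequenced, and a clone with few cells in a node can be missed at this depth.

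The 4 shared clonotypes are shown because they are the only clonotypes of both chains that Th1_03 shared with any other type, and all 4 led to Th1_01 or Th1_02. With the beta chain alone, control Th1_03 cells also shared clonotypes with CD8_01, CD8_02 and Treg cells, 1 with each. The CDR3 nucleotides of the contigs are given 5′ to 3′, with the first and last codon, those of the cysteine and the phenylalanine that bound the loop, in capitals. Under control chow both partners were Th1_02 cells.
TRAV6N-7 TRAJ27 alpha, control: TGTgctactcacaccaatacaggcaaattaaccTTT
TRBV19 TRBJ2-3 beta of the same cell: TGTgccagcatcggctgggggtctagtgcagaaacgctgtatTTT
TRAV7D-2 TRAJ28 alpha, control: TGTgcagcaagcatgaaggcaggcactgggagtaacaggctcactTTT
TRBV26 TRBJ2-4 beta of the same cell: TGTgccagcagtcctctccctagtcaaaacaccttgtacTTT
Under RGX-104 chow both partners were Th1_01 cells.
TRAV4D-4 TRAJ17 alpha, RGX-104: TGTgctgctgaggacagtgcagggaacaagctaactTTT
TRBV3 TRBJ2-3 beta of the same cell: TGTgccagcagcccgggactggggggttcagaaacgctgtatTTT
TRAV9-1 TRAJ31 alpha, RGX-104: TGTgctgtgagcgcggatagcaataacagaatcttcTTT
TRBV12-2+TRBV13-2 TRBJ1-2 beta of the same cell: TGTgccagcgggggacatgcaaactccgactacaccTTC

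The deposited clonal frequency column reads differently and needs care. It was above 1 in 27 of 211 Th1_03 cells with a receptor under control chow (12.8%) and in 36 of 163 under RGX-104 chow (22.1%), with a maximum of 6 and 9 cells. Of these cells 25 and 34 had a beta chain and no alpha chain, and 24 and 34 had a CDR3 that no other T cell of the library carried. Over all 3498 T cells with a value, the column equalled the number of cells with the same V and J genes in 99.7%, and the number with the same CDR3 nucleotides in 80.7%. It thus counted cells that share V and J genes, whether or not they share a CDR3. The share of Th1_03 cells with a beta but no alpha chain moves with it, since 205 of 223 control cells had a beta chain and 172 an alpha chain, against 158 and 121 of 181 RGX-104 cells.

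**Figure D4:**
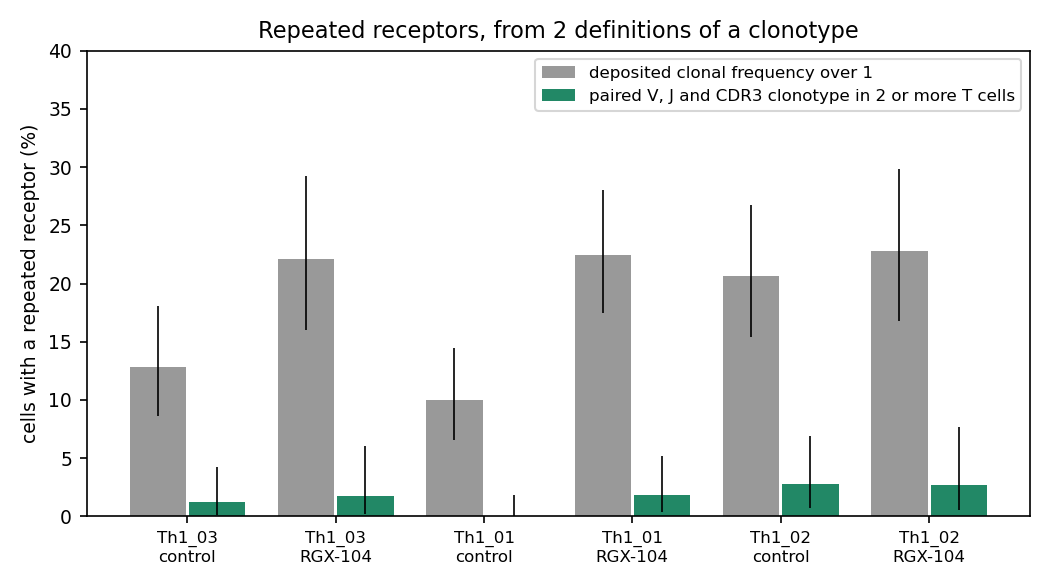
Percent of cells with a repeated receptor in Th1_03, Th1_01 and Th1_02 per library, by the deposited clonal frequency (gray, cells with any chain) and by paired V, J and CDR3 clonotypes (green, cells with both chains), with exact 95% intervals as bars. For Th1_03 the gray bars stand at 12.8% and 22.1% and the green bars at 1.20% and 1.72%.

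Variable segments were spread widely. The most used beta segments in control Th1_03 cells were TRBV31 and TRBV1, each in 11.7% (7.65 to 16.9), against 5.70% (2.64 to 10.5) and 6.96% (3.53 to 12.1) under RGX-104 chow. TRBV19 was in 9.76% and 10.1%. The intervals of the chows overlapped for each of these 3 segments, and TRBV31 was also less used under RGX-104 chow in Th1_01 (12.4% and 6.15%) and Th1_02 (10.7% and 6.79%).

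Between chows, the LXR and sterol genes stood out in Th1_03 cells. Of 4558 measured genes, 217 were at least 1.5-fold higher under RGX-104 chow (4.76%) and 195 lower (4.28%). The median log2 ratio over these genes was 0.01. In Th1_01 it was 229 of 5394 higher (4.25%) and 180 lower (3.34%), and in Th1_02 154 of 4219 higher (3.65%) and 175 lower (4.15%). Of 27 listed LXR targets 12 were measured, of which 7 were higher and none was lower, at a median log2 ratio of 1.42. Of 26 genes of cholesterol synthesis and uptake 11 were measured, of which 10 were higher and none was lower, at a median of 1.77. Mice fed RGX-104 differ from controls in the whole node, and with 1 library each the chow cannot be told apart from the library.

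Among the LXR targets, Scd2 (chr19:44293676-44306864), a desaturase that makes monounsaturated fatty acids, had 16 UMIs under control chow and 238 under RGX-104 chow (14.6 and 263 CPM), a ratio of 18.0 (10.9 to 32.1). It was seen in 6.73% and 63.5% of Th1_03 cells, or 2.26% and 37.6% at 2000 UMIs per cell, beside 3.03% and 35.8% in CD8_01 cells at that depth. Abca1 (chr4:53030789-53159988), which exports cholesterol to apolipoprotein A-I, had 15 and 89 UMIs, a ratio of 7.19 (4.13 to 13.4). Its partner in export Abcg1 (chr17:31057694-31117984) had 58 and 127 UMIs, a ratio of 2.65 (1.93 to 3.69). Srebf1 (chr11:60199084-60224186), the master factor of fatty acid synthesis, had 30 and 106 UMIs, a ratio of 4.28 (2.83 to 6.66), and Fasn, the fatty acid synthase it drives, 40 and 118 UMIs, a ratio of 3.58. Acsl3, which activates fatty acids, had a ratio of 4.38 (2.33 to 8.83) and Mylip, a ubiquitin ligase that limits lipoprotein uptake, 2.68 (1.94 to 3.75). The counts of these genes were spread over many cells, and no cell held more than 13.3% of the UMIs of any of Scd2, Abca1, Abcg1, Srebf1, Fasn and Acsl3 in either library.

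The other 5 measured LXR genes were Arl4c at 1.23 (1.003 to 1.51), Lpcat3 at 1.39, Elovl5 at 1.06, Smpdl3a at 1.08 and Nr1h2, which encodes LXR beta itself, at 1.43 (0.940 to 2.19). The intervals of the last 4 held 1. Nr1h3, which encodes LXR alpha, had 4 UMIs under control chow and 0 under RGX-104 chow. Apoe, an LXR target best known from macrophages, had 7 and 19 UMIs and was not counted as measured, and Acaca, the enzyme before Fasn, had 4 and 34 UMIs.

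Among the sterol genes, Idi1, which isomerises an early building block of sterols, had 15 UMIs under control chow and 59 under RGX-104 chow, a ratio of 4.77 (2.67 to 9.05). It was seen in 4.93% and 27.1% of Th1_03 cells. Further enzymes of the pathway lay close to it, with ratios for Hmgcs1 of 3.51 (2.05 to 6.26), Fdps of 3.40 (2.15 to 5.55), Cyp51 of 3.37 and Sc5d of 3.26. The regulators Insig1, which holds SREBP in the endoplasmic reticulum, and Srebf2, which encodes SREBP2, had ratios of 4.01 (2.56 to 6.48) and 1.80 (1.35 to 2.39). Ebp, the 1 measured gene not past 1.5-fold, had a ratio of 1.47 (0.934 to 2.32).

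Promoters bear on these genes through their factors' motifs. In RefSeq sequence of GRCm38.p6, from 250 bases before to 50 after each start, 17 of the 26 sterol genes and 19 of the 27 LXR targets had an entry. A sterol element, searched as TCACNCCAC on both strands, was found in Hmgcs1 alone of the 17, beside 1.44% of all 27025 genes with an entry. It is shown as the only match among the sterol genes, from chr13:119690202-119690234 on the + strand, with the element in capitals at 137 to 129 bases before the start.
Hmgcs1: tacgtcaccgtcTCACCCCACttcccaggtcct
The LXR motif, a direct repeat of hexamers spaced by 4 bases known as DR4, was in none of the 19 LXR targets in these windows. Of all genes with an entry, 0.0962% had it. A match is a description of these letters only.

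Most chow ratios of LXR and sterol genes in Th1_03 could not be told apart from those of its neighbours within counting error. Divided by the ratio of Th1_01, the chow ratios had a median of 1.12 over 14 LXR genes and 1.04 over 24 sterol genes. The intervals held 1 for 13 of 14 and 24 of 24. Divided by the ratio of Th1_02, the medians were 1.08 and 1.11, with intervals that held 1 for 13 of 13 and 15 of 15. The exception was Nr1h2, at 1.43 in Th1_03 and 0.785 in Th1_01. All of these counts include genes with too few UMIs to count as measured in Th1_03, where 12 LXR and 11 sterol genes were measured. Intervals of such genes were wide, as for Hsd17b7 (0.228 to 4.26) and Mvd (0.189 to 2.50) against Th1_01. That such intervals held 1 says little about likeness between the types. Scd2, Abca1, Srebf1, Abcg1 and Insig1 were at least 1.5-fold higher under RGX-104 chow in 12 of 12 T cell types, and the ratio in Th1_03 ranked 2 for Scd2 and 10 for Abca1 among the 12.

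**Figure D5:**
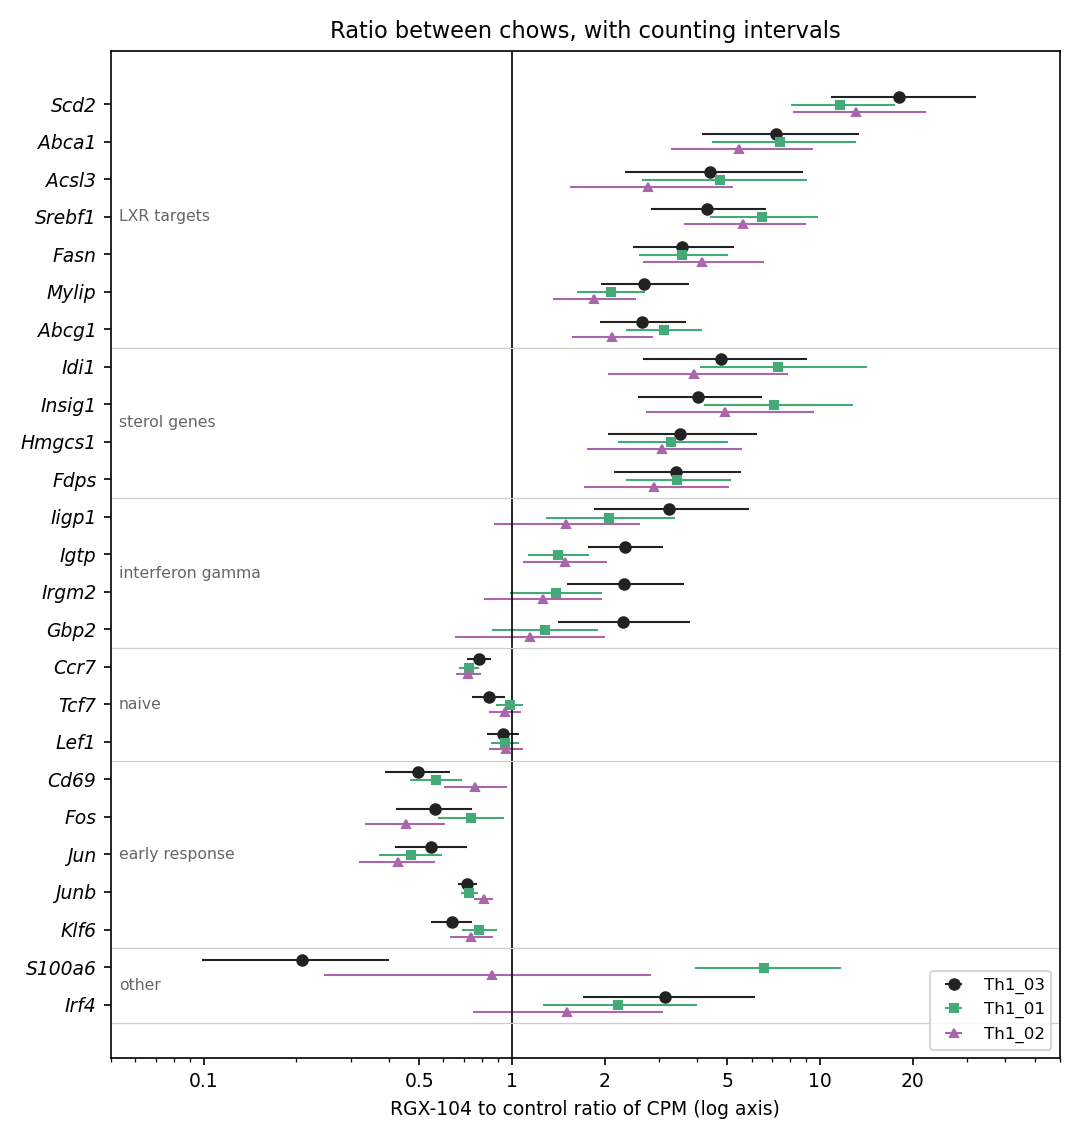
Ratio of CPM under RGX-104 chow to control chow for 25 genes in Th1_03 (black circles), Th1_01 (green squares) and Th1_02 (purple triangles), on a log axis, with 95% counting intervals. Scd2 and Abca1 lie farthest right in Th1_03 at 18.0 and 7.19, Cd69 lies at 0.496, and the 3 types overlap for most genes. S100a6 lies at 0.208 in Th1_03, where 1 control cell held most of its UMIs. It lies at 6.58 in Th1_01, which was not checked for such a cell and was the only 1 of 12 T cell types above 1.

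Genes of the interferon gamma response were the other group with several members past 1.5-fold. Of 24 measured genes 7 were higher and none was lower, beside 4.76% and 4.28% of all measured genes. The list's median log2 ratio was 0.20, beside 0.01 over all genes. Igtp, an immunity-related GTPase, had 78 UMIs under control chow and 150 under RGX-104 chow, a ratio of 2.33 (1.76 to 3.11). Its relatives Iigp1, Irgm2 and Irgm1 had ratios of 3.23 (1.85 to 5.90), 2.32 (1.51 to 3.62) and 1.56, and the guanylate-binding proteins Gbp2, Gbp7 and Gbp4 had 2.29 (1.41 to 3.80), 1.76 and 1.52. Irf1 (1.14) and the class I genes B2m (0.972) and H2-K1 (1.06) were not past 1.5-fold. In Th1_01 2 of 24 were higher, Gbp6 and Iigp1, beside 4.25% of all genes, and in Th1_02 3 of 24, beside 3.65%. The Igtp ratio of Th1_03 was 1.65 times that of Th1_01 (1.16 to 2.35) and 1.57 times that of Th1_02 (1.04 to 2.36), and Igtp, Gbp2 and Irgm2 had their highest ratio of the 12 T cell types in Th1_03. For Gbp2 the intervals held 1 against both, at 1.79 (0.983 to 3.27) and 1.99 (0.988 to 4.02). For Irgm2 the interval held 1 against Th1_01, at 1.67 (0.981 to 2.83), but not against Th1_02, at 1.84 (1.02 to 3.32). Iigp1 ranked 4 of the 9 types with a ratio, below CD8_03 at 8.16. For most of the list the ratio did not set Th1_03 apart: divided by that of Th1_01 the interval held 1 for 23 of 26 genes (median 1.10), and by that of Th1_02 for 21 of 25 (median 1.05). These counts include genes not counted as measured, Gbp3 and Gbp5 against Th1_01 and Gbp5 against Th1_02, whose intervals were wide. How reads of near relatives in these families were assigned was not tested. Ifng itself had 1 UMI per library in these cells. The summed myeloid and dendritic list was also higher under RGX-104 chow (641 against 423 CPM). Leaving out cells with 2 or more UMIs of chosen B cell and myeloid genes, or of Cd8a and Cd8b1, dropped 5 control and 11 RGX-104 cells. The count then remained 7 and the Igtp ratio was 2.34. That step does not remove transcripts of other cells at lower levels, and their part in these ratios was not tested.

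The class II transcripts H2-Aa and Cd74 were at least 1.5-fold higher under RGX-104 chow as well, beside 4.76% of all measured genes. H2-Ab1, at a ratio of 1.37, and H2-Eb1 had too few UMIs to count as measured. H2-Aa had 24 and 67 UMIs, a ratio of 3.38 (2.09 to 5.64), and Cd74, the invariant chain, 97 and 183 UMIs, a ratio of 2.29 (1.78 to 2.96). Naive mouse T cells are not known to make them. H2-Aa was seen in 4.52% and 14.4% of thinned Th1_03 cells (9.87% and 29.3% unthinned) and in 3.25% and 9.31% of thinned CD8_01 cells (10.3% and 22.3% unthinned), and its ratio was above 1 in 11 of 12 T cell types. The share of this signal that came from free RNA of antigen-presenting cells was not tested.

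Genes of naive T cells differed little between chows. The list had a median log2 ratio of -0.11, with Treml2 the only 1 of 20 past 1.5-fold, at 1.78 (1.19 to 2.68). Over all measured genes, 4.76% were higher and 4.28% lower. Ccr7 had 1237 and 798 UMIs and a ratio of 0.782 (0.714 to 0.855), and ratios of 0.726 and 0.722 in Th1_01 and Th1_02. Klf2, which sustains S1pr1, had a ratio of 0.799 (0.723 to 0.883), Tcf7 0.840 (0.744 to 0.948) and Dapl1 0.692 (0.572 to 0.834). Bach2, a guard of quiescence, stood the other way at 1.44 (1.14 to 1.83), and so did Ly6c1 at 1.41 (1.17 to 1.71). Lef1 and Il7r had ratios of 0.937 and 0.900 with intervals that held 1. Of the 4 measured T helper 1 genes, Id2, an inhibitor of E proteins, was past 1.5-fold at 1.82 (1.25 to 2.65), beside ratios of 0.898 in Th1_01 and 0.901 in Th1_02.

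Cd69, Jun and Fos were at least 1.5-fold lower under RGX-104 chow. Cd69, a receptor that holds activated cells in the node, had 237 UMIs under control chow and 97 under RGX-104 chow, a ratio of 0.496 (0.388 to 0.631). Of 20 measured early and stress genes, Jun and Fos, parts of the AP-1 factor, were past 1.5-fold at 0.548 (0.417 to 0.717) and 0.562 (0.422 to 0.742), and none was higher, beside 4.28% lower and 4.76% higher over all genes, with a list median of -0.17. The other 18 did not pass, among them Junb at 0.717 (0.667 to 0.770), Jund at 0.723, Nfkbia at 0.713 and Dusp1 at 0.753. Klf6, a factor outside the list, had a ratio of 0.639 (0.547 to 0.745). The direction was shared, with ratios below 1 for Cd69 and Klf6 in 12 of 12 T cell types and for Jun and Fos in 11 of 12. Cd69 had its lowest ratio of the 12 types in Th1_03, beside 0.569 in Th1_01 and 0.762 in Th1_02. Divided by the ratio of Th1_01 it was 0.872 (0.644 to 1.18), an interval that held 1, and by that of Th1_02 0.651 (0.469 to 0.903). Of 14 measured activation genes, Irf4, which tracks receptor signals, was higher at 3.15 (1.70 to 6.15) from 15 and 39 UMIs, and Nr4a3, another gene that follows receptor signals, at 2.03 (1.44 to 2.89). Irf4 stood at 2.21 in Th1_01 and 1.51 in Th1_02, and the interval of its ratio to each held 1. Nr4a3 stood at 1.07 and 1.30, with ratios to these of 1.90 (1.24 to 2.89) and 1.56 (0.992 to 2.46).

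Of the 195 genes at least 1.5-fold lower, those named by rule and not yet described follow. S100a6, a calcium-binding protein of effector cells, had 64 and 11 UMIs, a ratio of 0.208 (0.0991 to 0.398), but 1 control cell held 84.4% of its UMIs, and the ratio was 0.485 without the top cell of each library. Taf13, a subunit of the general transcription factor TFIID, had 52 and 16 UMIs, a ratio of 0.373 (0.199 to 0.664), beside 1.12 in Th1_01 and 0.899 in Th1_02. Phgdh, the entry enzyme of serine synthesis, had a ratio of 0.504 (0.323 to 0.770), and Ptpa and Eef1akmt1 had 0.452 and 0.463. From the ribosome biogenesis list, Dkc1 and Nop58 had ratios of 0.553 and 0.585, while Odc1, which starts polyamine synthesis, stood at 1.55 (1.18 to 2.04) in that list of 19 measured genes. Over all measured genes, 4.28% were lower and 4.76% higher.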

How the data were processed

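The matrices that the authors deposited give UMI counts for each gene in each barcode. Per the file headers they come from Cell Ranger 5.0.0, and the submitters' processing notes name mm10 and Seurat 5.0.3. The deposited annotation gives type names, UMI counts per cell, a mitochondrial percent, cell cycle and doublet scores, and a clonal frequency (a count of cells) with its fraction. It carries no barcodes, so each cell was matched to a barcode by UMI count, gene count (genes in 3 or more barcodes) and mitochondrial percent. All 5825 cells matched exactly 1 barcode, and the receptors in the annotation were found at the matched barcode for 211 of 211 and 163 of 163 Th1_03 cells. Counts were summed per type and library. Ratios carry exact conditional binomial intervals, CPM exact Poisson and shares exact Clopper-Pearson intervals; intervals of ratios of shares and of ratios of ratios are normal on the log scale. Genes were named by rule: the 10 highest and 10 lowest chow ratios by the bound nearest 1, at 20 CPM or more in 1 library, 8 each way for the type contrasts, and up to 4 per list. Other genes named were chosen after their values were seen, as were Seurat's cell cycle lists (5.3.0) and the check of the clonal frequency. Some genes that met the rule are counted in the lists but not reported here by name. Members and lists were chosen with earlier results of these data known. The interval code was tested on simulated data (Python 3.11.15, scipy 1.17.1, edgeR 4.0.16 for scaling factors).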

Additional observations from a re-analysis of the deposited data

How the results depend on the processing

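No paired analysis was possible because each chow has 1 library of a kind and the labels carry no replicate numbers. For the same reason no library could be left out, and the spread between mice is unknown. Counts of genes past a fold mostly reflect how many UMIs a gene must have, since few UMIs give wide ratios. Between chows, 217 genes were higher and 195 lower with RGX-104 at a minimum of 50 UMIs, against 1047 and 835 at a minimum of 10, 9 and 8 at 200, 2636 and 2410 with no minimum, 39 and 19 at 2-fold, and 86 and 89 with cells thinned to 2000 UMIs. The 7 higher LXR targets became 1 at 200 UMIs and 13 with no minimum, and their median log2 ratio 2.24 at 200 UMIs. The 10 higher sterol genes became 21 at 10 UMIs and with no minimum, with a median of 1.28 in both. They became 1 at 200 UMIs (median 0.85) and 2 in thinned cells, where fewer genes reached 50 UMIs. Against Th1_01, the 49 higher and 78 lower genes became 221 and 321 at 10 UMIs, 4 and 1 at 200, 432 and 649 with no minimum, 3 and 3 at 2-fold, and 27 higher in thinned cells. Against Th1_02, the 53 and 56 became 303 and 282, 1 and 4, 655 and 549, 4 and 4, and 29 higher in thinned cells. TMM factors gave 198 higher and 208 lower between chows, median-of-ratios factors 193 and 213, and totals that left out genes of ribosomal proteins, receptors, antibodies and mitochondria 227 and 191, with 7 LXR targets and 10 sterol genes higher under each of these 3. The share ratio was 0.688 over all barcodes. The percent of cells with a repeated clonotype was 12.8 under control chow and 22.1 under RGX-104 chow by the deposited clonal frequency, a reading chosen after seeing the data. Among single genes, Irf7 stood at 1.04 in thinned cells instead of 0.576, and Pclaf against Th1_02 at 0.347 in the control library without its top cell; the cause was not tested. Of the other values of single genes and lists, 789 moved by less than their counting interval and 28 by more without turning. Depth limits genes under about 50 UMIs, among them Tbx21, Ifng, Nr1h3 and Apoe.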

Other observations

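Further gene groups differed little between chows in Th1_03 cells. Beside them, 4.76% of all measured genes were at least 1.5-fold higher under RGX-104 chow and 4.28% lower. Of 10 measured genes of glycolysis, Pgam1, a phosphoglycerate mutase, was the 1 past 1.5-fold, with 72 UMIs under control chow and 37 under RGX-104 chow, a ratio of 0.623 (0.407 to 0.938), and the list had a median log2 ratio of -0.09. Of 19 measured genes of survival and cytokine receptors, Bbc3, which encodes the death protein PUMA, stood at 0.606 (0.330 to 1.08). None of the 9 measured proliferation genes was past 1.5-fold, at a median log2 ratio of 0.19. Of 11 measured genes of the type I interferon response, Zbp1, a sensor of Z-form nucleic acids, stood at 1.52 (1.02 to 2.26) and Irf7, which amplifies type I interferon, at 0.576 (0.357 to 0.911), so this list held 1 member past 1.5-fold each way. Sox4, which was lower in Th1_03 than in Th1_02, had 20 and 43 UMIs, a chow ratio of 2.61 (1.5002 to 4.68).

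Egr1, an early gene of receptor signalling, is on both the activation and the early response list. It was the only member of either list at least 1.5-fold higher in Th1_03 than in Th1_01 in both libraries. Its ratios were 2.30 (1.40 to 3.87) and 1.66 (1.05 to 2.63). This was 1 of 18 and 1 of 20 measured genes of these lists, beside 0.699% of all measured genes. Against Th1_02 the Egr1 ratios were 1.58 (0.978 to 2.603) and 1.64 (0.973 to 2.83), with intervals that held 1. Nr4a2, also of the activation list, was at least 1.5-fold lower than in Th1_02 in both libraries, beside 0.865% of all measured genes. Of 5 measured cytotoxic genes, Cst7 and Klrd1 were at least 1.5-fold higher in Th1_03 than in Th1_02 in both libraries, beside 0.818% of all measured genes. They rest on few counts in Th1_03, 15 and 24 UMIs of Cst7 and 26 and 33 of Klrd1, while Gzmb was at 0 in Th1_03 cells. The most used beta segment in Th1_03 cells under RGX-104 chow was the pair TRBV12-2+TRBV13-2, at 11.4%, against 7.80% under control chow.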
